A study of Homo sapiens with 9 samples.

Results

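The DNA replication machinery was followed here as 47 human genes, taken by gene name from the 60683 genes in each of 9 count files. No cut on measured values was used to choose them, but the list was made with earlier results of these data known. The 47 genes act at 8 steps: origin licensing (11 genes), helicase activation (6), the replicative polymerases (9), the sliding clamp and its loaders (7), Okazaki fragment processing (3), single-strand binding (3), fork protection (4), and histone deposition with the copying of chromatin marks (4). All 47 names were found once, as protein-coding genes. Messenger RNA had been sequenced from cells labelled HCT-15, a line from a human colorectal adenocarcinoma, of wild-type genotype in the labels. The sample titles carry the number 769 in place of that name, and what it stands for is not given in the sources used here. There were 3 libraries each of untreated, oxaliplatin-adapted and sorafenib-adapted cells. Cells of the oxaliplatin group spent their first 7 days in 0.5 µM of this platinum drug, which forms adducts on DNA. From day 10 to day 30 the dose was stepped up to 1, 2 and then 4 µM, where it was left. Sorafenib, an inhibitor of RAF and receptor tyrosine kinases, was applied in a similar way, and its doses are not in the labels. The series as titled is about chemotherapy and senescence under endoplasmic reticulum stress, and these libraries address what differs in drug-adapted cells.

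A replication origin is licensed in G1, when the origin recognition complex, CDC6 and CDT1 load the MCM2-7 helicase onto DNA as an inactive ring, and geminin later blocks CDT1 so that no origin is loaded again in the same cycle. In S phase CDC45 and the GINS complex join MCM2-7 to make the active helicase, DNA polymerase alpha with its primase lays down primers, and polymerases epsilon and delta extend the strands on the PCNA ring, which the RFC complex loads. Many of these genes are textbook targets of the E2F transcription factors, which the retinoblastoma protein restrains, and their messages are known to be abundant in cycling cells and scarce in cells that have left the cycle.

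The 9 libraries held between 15797076 and 20936536 counts, and mitochondrial genes took 8.44% to 9.94% of them in untreated, 9.56% to 11.9% in oxaliplatin and 10.1% to 11.1% in sorafenib libraries. Libraries of 1 group differed by more than sampling noise (chi-square per degree of freedom of 18 to 38.1). Each group carries 1 library code in its titles and nothing states that its libraries came from separate cultures, so the p-values measure no more than the spread between libraries, and that spread may be technical. The label was checked against marker genes: all 12 colorectal markers had a median under 1 CPM (counts scaled to library size), 8 of them were at 0 in every library (which allows up to 3 counts, or 0.138 to 0.182 CPM), among them CDX2 and CDH1, and 7 of 10 renal markers were above 1 CPM, with PAX8 at a median of 336 CPM. The label of a colorectal line was thus not borne out by these markers, and the identity of the cells was not settled here. In sum the colorectal markers made up 1.53 to 8.51 CPM in untreated, 0.365 to 1.03 in oxaliplatin and 0.681 to 1.41 in sorafenib libraries, and the renal markers 523 to 786, 778 to 850 and 789 to 1000 CPM. Untreated library 1 stood apart from untreated 2 and 3 in these sums and nearer to the drug libraries, with 1.53 against 8.51 and 8.43 CPM of colorectal markers and 786 against 576 and 523 CPM of renal ones. The 8 immune markers, with PTPRC and CD3E at 0 throughout, summed to 25.5 to 48.1, 20.4 to 57.8 and 17.8 to 50.3 CPM, most of it CD68. The 8 fibroblast and endothelial markers, with LUM, VWF and CDH5 at 0, summed to 6.22 to 43.1, 12.6 to 19.8 and 1.45 to 2.5 CPM, most of it COL1A1, and here too untreated 1, at 6.22 CPM, lay apart from untreated 2 and 3 at 43.1 and 40.6 CPM. The part that cell identity or mitochondrial content has in the results below was not tested. On the first principal component of the replication genes, with 82.8% of their variance, the untreated libraries lay at -1.71, -2.89 and -3.46 and the sorafenib libraries at 0.06, 0.67 and 0.56. Library 1 of each was thus the nearest to the other group, and counts without both are given beside the main ones. Both were picked on these same genes, so leaving them out sets the groups further apart by choice. Counts without them are a description and no check of the results.

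In oxaliplatin-adapted cells 35 of the 46 replication genes that passed the filter on low counts fell and 0 rose (edgeR's quasi-likelihood test, Benjamini-Hochberg adjusted p under 0.05, which is what "fell", "rose" and "called" mean throughout). Fewer cells in S phase and less message per cell cannot be told apart in such bulk libraries. The whole set of 16159 genes tested gave 31.7% calls, with 15.5% lower and 16.2% higher, against 76.1% of the replication genes. At an unadjusted p under 0.05 all genes tested gave 3490 lower and 3645 higher, and by DESeq2 they gave 2812 and 2775. The replication genes gave 36 lower and 0 higher at an unadjusted p under 0.05, and 35 and 0 by DESeq2. Their median log2 fold change was -0.58, a 1.5-fold lower level, beside 0.02 over all genes tested, and single genes ranged from -1.49 for GINS2 to 0.12 for RFC1. At least 2-fold lower were 6 of the 46, namely CDC6, MCM5, CDC45, GINS2, FEN1 and RNASEH2A, where 3.01% of all genes tested were. For 38 of the 46 all 3 oxaliplatin values lay below all 3 untreated ones, which held for 23.2% of all genes tested. Without untreated library 1 and sorafenib library 1 the count that fell was 33, and leaving out each library in turn gave 25 to 34. Among all genes the lower calls moved too, from 2504 with all libraries to 2790 without both. With 1 library left out they were 1387 to 2607.

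The replication genes summed to 3310 to 3889 CPM in the untreated libraries, 2135 to 2312 CPM in the oxaliplatin libraries and 2598 to 2814 CPM in the sorafenib libraries. The 3 ranges did not overlap, and sorafenib lay between the other groups. The median gene of a library stood at -0.72 to -0.50 in oxaliplatin and -0.40 to -0.37 in sorafenib relative to its untreated mean on the log2 scale, while the untreated libraries themselves ran from -0.14 to 0.12.

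**Figure D1:**
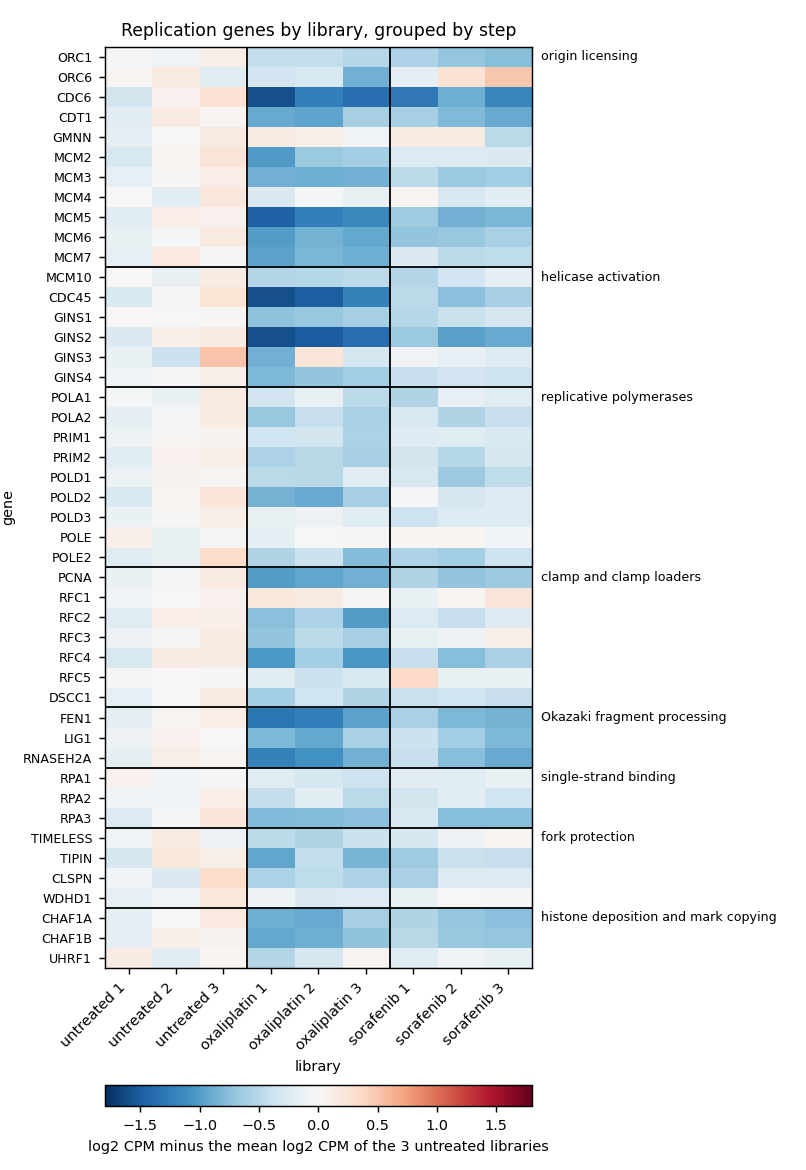
Log2 CPM of each of the 46 tested replication genes (rows, by step) in each of the 9 libraries (columns), relative to the mean of the 3 untreated libraries, with blue for lower and red for higher. Blue fills most of the 3 oxaliplatin columns and is paler in the 3 sorafenib columns, and MCM4, POLE and RFC1 stay pale in all 9. GMNN does so except in sorafenib 3, with 16 CPM against an untreated mean of 22.5 CPM.

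Promoter sequence was read for 40 of the 47 genes from RefSeq (GRCh38.p14), as the 250 bases before and 50 bases after the start of each gene. An E2F motif, taken as TTTCCCGC, TTTCGCGC, TTTGCCGC or TTTGGCGC on either strand, was present in 17 of these 40 windows (42.5%), in 4.87% of the 15184 windows of genes tested and in 3.31% of all 35116 windows of this length. Among genes that fell in oxaliplatin 13 of 30 windows held it (43.3%), and among tested genes that were not called 4 of 9 did (44.4%). By step it was found in 6 of 9 licensing genes, 3 of 5 helicase activation genes, 4 of 8 polymerase genes, 1 of 6 clamp and loader genes, 1 of 3 Okazaki genes, 2 of 4 fork protection genes, 0 of 4 histone genes and 0 of 1 single-strand binding gene. The CCAAT box (CCAAT, either strand) was in 60% of the windows of replication genes and 34.9% of those of genes tested, and the CHR element (TTTGAA, either strand), which is known from promoters of mitotic genes, was in 1 of the 40, that of ASF1B, and in 10.4% of those of genes tested. A match is a match of letters and was not tested as a binding site.

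The stretches around the E2F match are shown for 6 genes that fell in oxaliplatin, 1 or 2 from every step with a match other than the polymerases, and after them for 3 that did not, because the motif stood on both sides of that line. Each is written 5′ to 3′ on the strand of its gene, lies before the RefSeq start, and has the matched bases in capitals.
MCM6, chr2:135876512-135876605, minus strand: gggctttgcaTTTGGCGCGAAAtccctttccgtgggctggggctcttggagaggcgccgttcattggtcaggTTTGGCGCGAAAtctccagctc
CDT1, chr16:88803743-88803772, plus strand: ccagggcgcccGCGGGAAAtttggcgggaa
GINS2, chr16:85688967-85688996, minus strand: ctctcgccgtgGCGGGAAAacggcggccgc
TIPIN, chr15:66356731-66356760, minus strand: ccgcacggaTTTGGCGCCAAAcgctgcggg
LIG1, chr19:48170440-48170469, minus strand: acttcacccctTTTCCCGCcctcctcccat
RFC3, chr13:33818083-33818112, plus strand: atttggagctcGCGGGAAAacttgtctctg
GMNN, chr6:24775307-24775366, plus strand: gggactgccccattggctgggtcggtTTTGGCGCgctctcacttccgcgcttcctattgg
POLE, chr12:132687343-132687372, minus strand: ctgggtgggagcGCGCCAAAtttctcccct
POLA1, chrX:24693755-24693814, plus strand: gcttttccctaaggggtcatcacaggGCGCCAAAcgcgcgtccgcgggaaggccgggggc
The MCM6 stretch carries overlapping matches on opposite strands near both of its ends, and TIPIN has such a pair as well. The stretches of CDT1, GINS2, LIG1, RFC3 and POLE lie wholly or in part in an exon of a transcript that starts further upstream in GENCODE 29 than the RefSeq start, and those of MCM6, TIPIN, GMNN and POLA1 share no base with an annotated exon.

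Origin licensing held some of the largest falls, of CDC6 and MCM5, while ORC6, GMNN and MCM4 were not called in either drug. In oxaliplatin 8 of its 11 genes fell (median log2 fold change -0.81), and in sorafenib 6 did, against a background of 4.80% called there, 1.97% lower and 2.82% higher (DESeq2 counted 8 and 7). CDC6, the ATPase that brings the MCM ring to the origin (ENSG00000094804, chr17:40287879-40304657), stood at 57.1, 75.5 and 85.8 CPM in untreated libraries 1 to 3, 24, 30.7 and 28.1 CPM in oxaliplatin and 29.5, 38.9 and 31.7 CPM in sorafenib. Both drug groups lay wholly below the untreated one and overlapped each other, with log2 fold changes of -1.40 ± 0.18 (SE, adjusted p = 0.00145) in oxaliplatin and -1.12 ± 0.17 (adjusted p = 0.0107) in sorafenib. CDT1, the loading partner of CDC6 (ENSG00000167513, chr16:88803789-88809258), whose upstream E2F match is shown above, had 114, 143 and 133 CPM untreated, 69.2, 66.8 and 85.4 CPM in oxaliplatin and 85.4, 74.2 and 68.6 CPM in sorafenib. Again neither drug group reached the untreated values, and CDT1 fell in oxaliplatin (-0.81 ± 0.14, adjusted p = 0.00367) and in sorafenib (-0.77 ± 0.14, adjusted p = 0.0193). The difference between the drugs was -0.04 ± 0.14 and was not called (adjusted p = 0.866). ORC1, the ATPase subunit of the origin recognition complex (chr1:52372829-52404423), was 43.1, 41.5 and 46.8 CPM untreated, 32.6, 32.1 and 30.8 CPM in oxaliplatin and 29.9, 26.9 and 25.8 CPM in sorafenib. It was the one licensing gene whose sorafenib values all lay below the oxaliplatin ones, though that difference was not called (adjusted p = 0.237), and both falls were (-0.46 ± 0.11, adjusted p = 0.0115, and -0.67 ± 0.11, adjusted p = 0.0123). ORC6, another subunit of the complex, was not called in oxaliplatin (-0.48 ± 0.21, adjusted p = 0.103) or sorafenib (0.21 ± 0.21, adjusted p = 0.559). GMNN, the gene of geminin, the inhibitor of CDT1 (ENSG00000112312, chr6:24774931-24786099), had 19.9, 22.5 and 24.9 CPM untreated, 24.6, 24.1 and 21.5 CPM in oxaliplatin and 24.5, 24.8 and 16 CPM in sorafenib. Its 3 groups overlapped, with log2 fold changes of 0.06 ± 0.18 and -0.05 ± 0.18 (adjusted p = 0.823 and 0.9). The ratio of GMNN to CDT1 in CPM was 0.158 to 0.187 in untreated, 0.252 to 0.361 in oxaliplatin and 0.234 to 0.334 in sorafenib libraries, a ratio picked after the values had been seen and given as a description.

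Of the 6 genes of the MCM2-7 ring, 5 fell in oxaliplatin and MCM4 did not. MCM5 (ENSG00000100297, chr22:35400134-35425431) showed the deepest fall, from 195, 243 and 236 CPM untreated to 81.4, 95.6 and 99.9 CPM in oxaliplatin, with 143, 123 and 126 CPM in sorafenib. The 3 groups did not overlap, and the log2 fold change was -1.28 ± 0.13 (SE, adjusted p = 0.000822) in oxaliplatin and -0.78 ± 0.12 (adjusted p = 0.0123) in sorafenib. MCM6 (chr2:135839626-135876443) went from 128, 139 and 158 CPM to 70.5, 78 and 74.7 CPM in oxaliplatin and 86, 87.8 and 94.5 CPM in sorafenib, again as 3 separate ranges (-0.93 ± 0.11, adjusted p = 0.00118, and -0.67 ± 0.11, adjusted p = 0.0123). MCM3 (chr6:52264014-52284881) read 240.2, 270.2 and 290 CPM untreated, 146, 145 and 147 CPM in oxaliplatin and 192, 168 and 173 CPM in sorafenib. Its oxaliplatin values were nearly equal to each other, below both other groups, and it fell in both drugs (-0.87 ± 0.10, adjusted p = 0.00119, and -0.59 ± 0.10, adjusted p = 0.017). MCM7 (chr7:100092728-100101940) had 335, 422 and 364 CPM untreated, 191, 211 and 203 CPM in oxaliplatin and 312, 266 and 272 CPM in sorafenib. Its ranges were separate too, and it fell in oxaliplatin (-0.89 ± 0.12, adjusted p = 0.00158) but was not called in sorafenib (-0.40 ± 0.12, adjusted p = 0.0704). MCM2 (chr3:127598410-127622436) was 131, 164 and 188 CPM untreated, 79, 101 and 104 CPM in oxaliplatin and 135, 135 and 133 CPM in sorafenib. Oxaliplatin lay below both other groups (-0.77 ± 0.15, adjusted p = 0.00583), and sorafenib overlapped the untreated range (-0.26 ± 0.15, adjusted p = 0.292). MCM2 shares 22.7% of its exon bases with a gene on the other strand, and whether the counting used strand is not given in the sources used here, so part of its counts is uncertain.

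MCM4 (ENSG00000104738) had 191, 165 and 219.9 CPM in the untreated libraries, 159, 188 and 174 CPM in oxaliplatin and 197, 156 and 166 CPM in sorafenib. All 3 ranges overlapped, and neither fold change was called (-0.15 ± 0.14, adjusted p = 0.427, and -0.15 ± 0.14, adjusted p = 0.516). Relative to the mean CPM of the other 5 ring genes, MCM4 was 0.667 to 0.927 in untreated, 1.38 to 1.49 in oxaliplatin and 0.999 to 1.14 in sorafenib libraries. MCM4 was picked for this ratio after its values had been seen, so the ratios are a description.

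**Figure D2:**
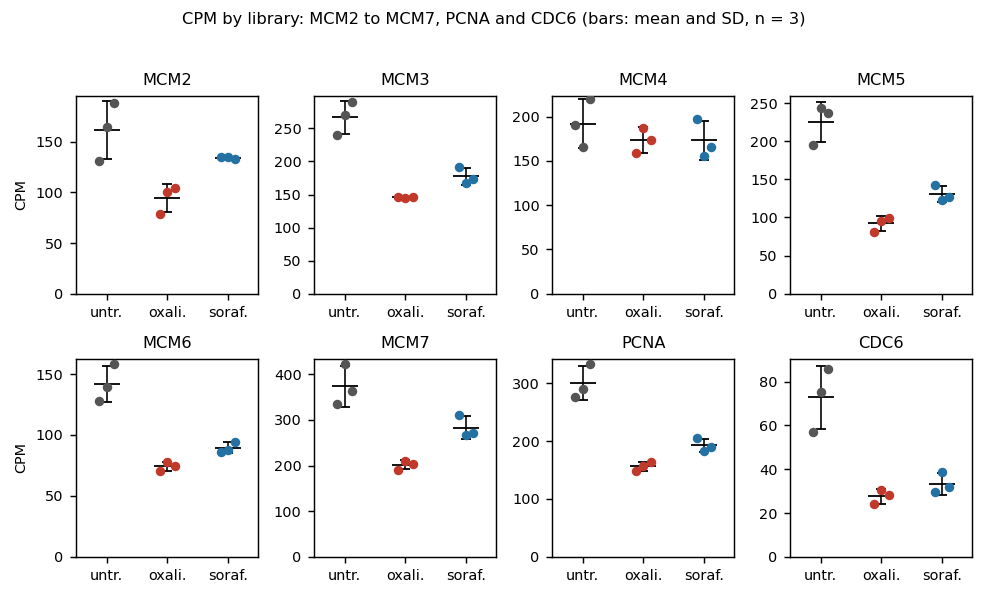
CPM of MCM2 to MCM7, PCNA and CDC6 in each library (points), by group on the x axis, with the mean and SD of the 3 libraries as bars and every y axis starting at 0. The oxaliplatin points lie below the untreated points in every panel but that of MCM4, where the 3 groups overlap between 155.7 and 219.9 CPM.

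The genes that turn the loaded ring into a helicase fell nearly as a set in oxaliplatin: 5 of 6 were called lower (median -0.69), and 2 in sorafenib (median -0.39), GINS1 and GINS2. GINS2 (ENSG00000131153, chr16:85676198-85690073), a subunit of the GINS complex, had the lowest fold change of all replication genes in oxaliplatin, while in sorafenib that of CDC6 was lower. It stood at 35.4, 45.5 and 46.7 CPM untreated, 14.1, 14.9 and 16.3 CPM in oxaliplatin and 26.5, 21.5 and 22.4 CPM in sorafenib, 3 ranges with no overlap. Its log2 fold change was -1.49 ± 0.15 (SE, adjusted p = 0.000822) in oxaliplatin, to 35.5% of the untreated level, and -0.86 ± 0.14 (adjusted p = 0.0146) in sorafenib. CDC45 (ENSG00000093009, chr22:19479457-19520612), the partner of GINS in the active helicase, fell from 27.3, 33.6 and 39.2 CPM to 11, 11.8 and 14.2 CPM in oxaliplatin, with 23.7, 19.6 and 21.8 CPM in sorafenib. The ranges were separate, the change in oxaliplatin was called (-1.44 ± 0.17, adjusted p = 0.00118) and that in sorafenib was not (-0.62 ± 0.16, adjusted p = 0.0565). GINS1 fell in both drugs (-0.67 ± 0.10, adjusted p = 0.00228, and -0.40 ± 0.10, adjusted p = 0.0488), and GINS4 and MCM10, which helps to activate the helicase, fell in oxaliplatin (-0.71 ± 0.11 and -0.51 ± 0.14). MCM10 lost its call without untreated 3, oxaliplatin 1 or oxaliplatin 2, and with scaling by library size only, with an adjusted p of up to 0.0754 over the alternatives. GINS3 was the exception, at 7.92, 6.63 and 12.3 CPM untreated, 4.77, 10.04 and 6.99 CPM in oxaliplatin and 8.26, 7.78 and 7.34 CPM in sorafenib. Its untreated libraries alone spread over most of that range, and the groups overlapped (-0.30 ± 0.29, adjusted p = 0.451). GINS3 and GINS4 share 10.9% and 21.2% of their exon bases with a gene on the other strand.

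Among the replicative polymerases 0 of 9 genes were at least 2-fold lower, and the catalytic subunit genes of polymerases alpha and epsilon, POLA1 and POLE, were not called. With fold changes corrected for GC content and length both were called lower in oxaliplatin, POLA1 at -0.52 (adjusted p = 0.00934) and POLE at -0.46 (adjusted p = 0.00863). In oxaliplatin 6 of 9 genes fell (median -0.42), and in sorafenib 0 did by edgeR, with 6 lower and 0 higher at an unadjusted p under 0.05 and 2 by DESeq2. POLD2, the accessory subunit of polymerase delta (ENSG00000106628, chr7:44114681-44124358), had the lowest fold change of the step in oxaliplatin, with 90.3, 113 and 127 CPM untreated, 60.5, 58.4 and 72.5 CPM in oxaliplatin and 106, 88.4 and 92.8 CPM in sorafenib. The oxaliplatin values lay below both other groups (-0.79 ± 0.15, adjusted p = 0.00505), and the sorafenib values overlapped the untreated ones (-0.20 ± 0.15, adjusted p = 0.42). POLE, the catalytic subunit of polymerase epsilon (ENSG00000177084, chr12:132623753-132687376), had 82.8, 71.7 and 78.6 CPM untreated, 69.2, 76.9 and 78.4 CPM in oxaliplatin and 79.7, 79.8 and 74.7 CPM in sorafenib. Its 3 groups overlapped in full, with log2 fold changes of -0.05 ± 0.10 and 0.01 ± 0.10 (adjusted p = 0.711 and 0.981). Its second subunit gene POLE2 fell in oxaliplatin (-0.58 ± 0.19, adjusted p = 0.0438). For polymerase alpha, the catalytic POLA1 was not called (-0.32 ± 0.15, adjusted p = 0.125), while POLA2, PRIM1 and PRIM2, its B subunit and both primase subunits, fell by 0.56, 0.42 and 0.55 on the log2 scale. For polymerase delta, the catalytic POLD1 fell (-0.40 ± 0.13, adjusted p = 0.0401) and POLD3 was not called (-0.15 ± 0.11). Of these calls those of POLA2, PRIM1, POLD1 and POLE2 depended on single libraries: POLA2 lost it without oxaliplatin 1 (adjusted p of up to 0.0534 over the alternatives), PRIM1 without untreated 2 or 3 (up to 0.0579), POLD1 without untreated 2 or 3, oxaliplatin 1 or 2, or sorafenib 3 (up to 0.132), and POLE2 when any 1 library except untreated 1 was left out (up to 0.162). Other settings removed calls as well, among them scaling by library size only for PRIM1, POLD1 and POLE2, and the replicate number as a block for POLD1 and POLE2. POLA2 shares 35.1% and PRIM1 14.9% of their exon bases with another gene on the same strand, so their counts are less certain.

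PCNA, the sliding clamp, had the highest untreated CPM per kilobase of annotated exon among the replication genes and fell in both drugs. PCNA (ENSG00000132646, chr20:5114953-5126626) stood at 276, 291 and 333 CPM untreated, 148, 156 and 164 CPM in oxaliplatin and 205, 183 and 190.1 CPM in sorafenib. The 3 ranges were separate, with log2 fold changes of -0.94 ± 0.10 (SE, adjusted p = 0.00106) and -0.64 ± 0.10 (adjusted p = 0.0131). Of the 5 RFC genes, the clamp loader subunits, RFC2, RFC3 and RFC4 fell in oxaliplatin, by 0.77, 0.59 and 0.89 on the log2 scale, and RFC5 was not called (-0.29 ± 0.15, adjusted p = 0.154). RFC1, the large subunit (chr4:39287456-39366375), had 36.4, 38.1 and 40.4 CPM untreated, 43.5, 42.4 and 38.7 CPM in oxaliplatin and 34.9, 39.7 and 44.9 CPM in sorafenib. Its groups overlapped, and in oxaliplatin its fold change was the highest of all replication genes at 0.12 ± 0.12 (adjusted p = 0.486). RFC3 (chr13:33818069-33966558) was the 1 gene of the step that was called between the drugs, with 61, 64.5 and 72.5 CPM untreated, 40.4, 47.6 and 43.6 CPM in oxaliplatin and 60.2, 61.6 and 69.98 CPM in sorafenib. Only the oxaliplatin values lay apart (-0.59 ± 0.12, adjusted p = 0.00621), and those in sorafenib overlapped the untreated range (-0.05 ± 0.12, adjusted p = 0.843). DSCC1, of the alternative loader that acts in cohesion, fell in oxaliplatin (-0.50 ± 0.13, adjusted p = 0.0147), a call lost without untreated 3 or oxaliplatin 1 (adjusted p of up to 0.0661).

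All 3 Okazaki fragment genes fell in oxaliplatin, and all 3 fell in sorafenib. FEN1, the flap nuclease that removes the displaced primer (ENSG00000168496, chr11:61792911-61797238), had 62.1, 72 and 76.2 CPM untreated, 28.3, 29.6 and 35.8 CPM in oxaliplatin and 46.5, 39.9 and 38.9 CPM in sorafenib. Its 3 ranges were separate (-1.17 ± 0.14, adjusted p = 0.00118, and -0.75 ± 0.14, adjusted p = 0.0192). RNASEH2A, the catalytic subunit of ribonuclease H2 (chr19:12806584-12813640), had 53.1, 63.6 and 61.5 CPM untreated, 25.5, 27.8 and 32.5 CPM in oxaliplatin and 44.3, 34.9 and 31.6 CPM in sorafenib. Both drug groups lay below the untreated one and overlapped each other (-1.05 ± 0.15, adjusted p = 0.00218, and -0.69 ± 0.15, adjusted p = 0.038). LIG1, the ligase that seals the fragments (chr19:48115445-48170603), went from 83.2, 93.5 and 89.4 CPM to 50.7, 46.9 and 59.1 CPM in oxaliplatin and 67.5, 57.3 and 50.4 CPM in sorafenib. The drug groups overlapped each other and not the untreated group (-0.76 ± 0.14, adjusted p = 0.00414, and -0.60 ± 0.14, adjusted p = 0.0382). RNASEH2A shares 30.8% of its exon bases with another gene on the same strand.

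The 3 subunits of RPA, which coats single-stranded DNA, fell in oxaliplatin and were not called in sorafenib, where the unadjusted p was under 0.05 for 2 lower and 0 higher and DESeq2 called 1 lower. RPA3, the smallest subunit (chr7:7636518-7718607), had 46.7, 55.8 and 64.4 CPM untreated, 31.7, 32.2 and 32.8 CPM in oxaliplatin and 45.5, 32.5 and 32.4 CPM in sorafenib. Both drug groups lay below the untreated one, sorafenib 1 only just so (-0.79 ± 0.16, adjusted p = 0.00718, and -0.60 ± 0.16, adjusted p = 0.0613). RPA1, the largest (chr17:1829702-1900082), had 129, 116 and 121 CPM untreated, 105, 98.3 and 94 CPM in oxaliplatin and 107, 105 and 111 CPM in sorafenib. The groups were separate from untreated, but the fall was small (-0.30 ± 0.09, adjusted p = 0.0352), as was that of RPA2 (-0.37 ± 0.12, adjusted p = 0.0449). RPA1 lost its call when any 1 library except sorafenib 1 was left out (adjusted p of up to 0.178 over the alternatives), and RPA2 when any 1 except oxaliplatin 2 and sorafenib 1 was (up to 0.198). Both also lost it under other settings, among them scaling by library size only and the replicate number as a block.

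Of the fork protection genes 3 of 4 fell in oxaliplatin, and 0 were called in sorafenib, with 2 lower and 0 higher at an unadjusted p under 0.05 and 0 by DESeq2. TIPIN, which with TIMELESS travels with the fork (chr15:66336191-66386746), had 12.8, 18.2 and 17 CPM untreated, 8.25, 11.6 and 8.88 CPM in oxaliplatin and 10.2, 12 and 11.8 CPM in sorafenib. The drug groups lay below the untreated one (-0.74 ± 0.19, adjusted p = 0.0156, and -0.50 ± 0.19, adjusted p = 0.134). TIMELESS (-0.47 ± 0.12) and CLSPN, the gene of the checkpoint mediator claspin (-0.55 ± 0.16), fell in oxaliplatin with adjusted p-values of 0.019 and 0.0303. WDHD1, which links polymerase alpha to the helicase (chr14:54938949-55027105), had 19.8, 21.3 and 25.2 CPM untreated, 20.7, 18.3 and 18.7 CPM in oxaliplatin and 20.2, 22.1 and 21.4 CPM in sorafenib, overlapping in all groups (-0.20 ± 0.13, adjusted p = 0.258). The calls were lost for TIPIN without untreated 2 or 3 or oxaliplatin 1 (adjusted p of up to 0.0661 over the alternatives), for TIMELESS without untreated 2 or oxaliplatin 1 or 2 (up to 0.0764), and for CLSPN without untreated 3 or any 1 oxaliplatin library (up to 0.108). Scaling by library size only also removed those of TIMELESS and CLSPN, and the replicate number as a block that of CLSPN. TIPIN shares 21% of its exon bases with a ribosomal protein pseudogene on the same strand.

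At the histone step the 2 tested subunits of chromatin assembly factor 1, which deposits histones behind the fork, fell in both drugs. CHAF1B (chr21:36385392-36419015) had 34.9, 42.7 and 41.5 CPM untreated, 20.8, 21.6 and 24 CPM in oxaliplatin and 27.9, 24.6 and 24.5 CPM in sorafenib, 3 separate ranges (-0.84 ± 0.12, adjusted p = 0.00228, and -0.63 ± 0.12, adjusted p = 0.0269). CHAF1A (chr19:4402640-4445018) had 67.6, 76.5 and 86.3 CPM untreated, 41.7, 40.8 and 50.3 CPM in oxaliplatin and 52.5, 47 and 45.2 CPM in sorafenib. The drug groups overlapped each other below the untreated range (-0.80 ± 0.13, adjusted p = 0.00333, and -0.67 ± 0.13, adjusted p = 0.0259). UHRF1, which guides the copying of DNA methylation (chr19:4903080-4962154), had 54.3, 43 and 50.4 CPM untreated, 34, 39.6 and 50.6 CPM in oxaliplatin and 42.1, 47 and 44.8 CPM in sorafenib. Its groups overlapped (-0.25 ± 0.16, adjusted p = 0.239), and without oxaliplatin 3, the highest of its group, it was called lower at an adjusted p of 0.0498. ASF1B, a histone chaperone (chr19:14119512-14136613), held 2 to 7 counts per library, or 0.107 to 0.365 CPM, and was left out by the filter on low counts.

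In sorafenib-adapted cells 14 of the 46 genes (30.4%) fell and 0 rose, where 1.97% of all genes tested fell and 2.82% rose. The median log2 fold change was -0.39 beside 0 over all genes tested, and for 32 of the 46 all sorafenib values lay below all untreated ones, as they did for 14.3% of all genes tested. Sorafenib and oxaliplatin were compared with the same 3 untreated libraries, so what those libraries contribute is common to both results. The 14 were ORC1, CDC6, CDT1, MCM3, MCM5, MCM6, GINS1, GINS2, PCNA, FEN1, LIG1, RNASEH2A, CHAF1A and CHAF1B. CDC6 alone was at least 2-fold lower, where 0.699% of all genes tested were. At an unadjusted p under 0.05 the counts were 30 lower and 0 higher, and DESeq2 called 21 lower and 0 higher. Over all genes tested the unadjusted counts were 1878 lower and 2227 higher, and DESeq2 called 804 lower and 992 higher. The count of 14 depended on single libraries. It was 4 without untreated 2, 1 without untreated 3, 1 without sorafenib 2 and 0 without sorafenib 3. In these fits the calls among all genes in that direction were 57, 55, 46 and 37. None of the 14 kept its call in every alternative, and CDC6, which lost it in the fewest, did so without sorafenib 3 (adjusted p of up to 0.0622). The count was 19 without untreated 1, 17 without sorafenib 1 and 20 without both. Both libraries were picked on these same genes, so the higher counts are no check on the 14. Among all genes the calls in that direction rose as well, from 319 with all libraries to 706, 677 and 1315. The median stayed between -0.44 and -0.33 in all 9 of these fits with 1 library left out.

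**Figure D3:**
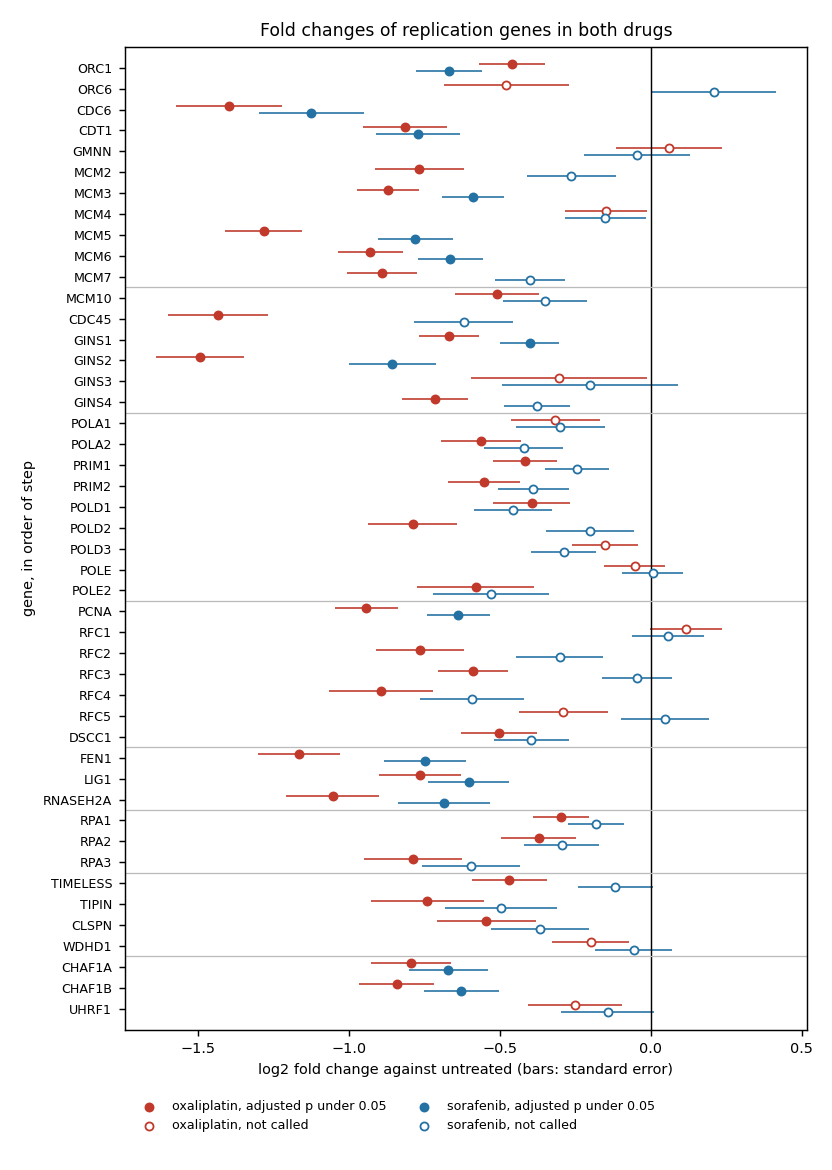
Log2 fold change against untreated of each of the 46 tested replication genes (rows, by step), in red for oxaliplatin and blue for sorafenib, with bars for the standard error and filled points for an adjusted p under 0.05. Filled red points number 35 and filled blue points 14, all to the left of 0.

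Compared directly, 6 replication genes were lower in oxaliplatin than in sorafenib and 0 were higher (18 and 0 at an unadjusted p under 0.05, and 9 and 0 by DESeq2), where 10.3% of all genes tested were called, 5.07% lower and 5.20% higher. They were CDC45 (-0.81 ± 0.17, adjusted p = 0.016), GINS2 (-0.64 ± 0.14, adjusted p = 0.0241), POLD2 (-0.59 ± 0.15, adjusted p = 0.0339), RFC3 (-0.54 ± 0.12, adjusted p = 0.0192), MCM5 (-0.50 ± 0.12, adjusted p = 0.033) and MCM7 (-0.49 ± 0.12, adjusted p = 0.0269). In each of these 6 all oxaliplatin values lay below all sorafenib values, as they did for 19 of the 46 and for 17.6% of all genes tested. The median difference was -0.18, beside -0.01 over all genes tested. An unadjusted p under 0.05 gave 2307 lower and 2225 higher over all genes tested, and DESeq2 gave 1237 and 1180. CDC45, POLD2, RFC3 and MCM7 were among the genes called against untreated in oxaliplatin and not in sorafenib, and for the rest of those genes a difference between the drugs was not shown. These calls too hung on single libraries, with 0 left without oxaliplatin 1, 1 without oxaliplatin 2, and 2, 1 and 3 without sorafenib 1, 3 and 2. In these fits, in the same order, the lower calls among all genes were 258, 317, 402, 401 and 442, against 819 with all libraries.

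Per kilobase of annotated exon, the untreated level was highest for PCNA at 204 CPM per kb, followed by MCM7 at 85.3, MCM3 at 73.1, CDT1 at 38.9, MCM6 at 34.4, MCM2 at 32.9, MCM5 at 30.6 and POLD2 at 29.8 CPM per kb. The length counts every annotated exon of a gene, from 1471 bases for PCNA to 7338 for MCM5. It need not be that of the transcript present, so all these ranks depend on the annotation. MCM4, at 27.5 CPM per kb, was the lowest of the ring in untreated cells, and in oxaliplatin its 24.9 CPM per kb was above MCM2 (19.3), MCM6 (18.1) and MCM5 (12.6). The untreated rank of MCM4 rested on its annotated exon length of 6973 bases. Unscaled, its untreated mean of 192 CPM was above those of MCM2 (161 CPM) and MCM6 (142 CPM). Among tested genes the lowest untreated levels were those of GINS3 at 1.75, MCM10 at 3.30, POLE2 at 3.38 and WDHD1 at 3.46 CPM per kb. The active helicase partners were of unequal level, with CDC45 at 11.7 and GINS1, GINS2 and GINS4 at 15.8, 13.04 and 5.80 CPM per kb.

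The calls were also set against the exon length of each gene. Of the 23 replication genes with up to 4304 exon bases 21 fell in oxaliplatin (median -0.79), and of the 23 longer ones 14 did (median -0.48). Of all genes tested 21.4% fell at or below that length (median -0.19) and 9.75% above it (median 0.19). Spearman's rho between fold change and exon length was 0.31 over the 46 replication genes and 0.31 over 16005 genes tested, and with GC content it was -0.33 and -0.23, as descriptions across genes, which share the same libraries and are not independent. With fold changes corrected in each library for GC content and length, 37 replication genes fell in oxaliplatin (median -0.61). Calls over all genes shifted toward lower too, with 2814 lower and 2134 higher (median -0.02) against 2504 and 2619 without the correction. The long genes POLE and POLA1, with the values given above, WDHD1 (-0.47, adjusted p = 0.0172) and POLD3 (-0.30, adjusted p = 0.0311) were then called lower, and POLD1 (adjusted p = 0.0721) and RPA2 (adjusted p = 0.198) were not. Whether POLE and POLA1 were called lower thus depended on this correction. MCM4, GMNN, RFC1 and GINS3 were not called with it or without it.

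**Figure D4:**
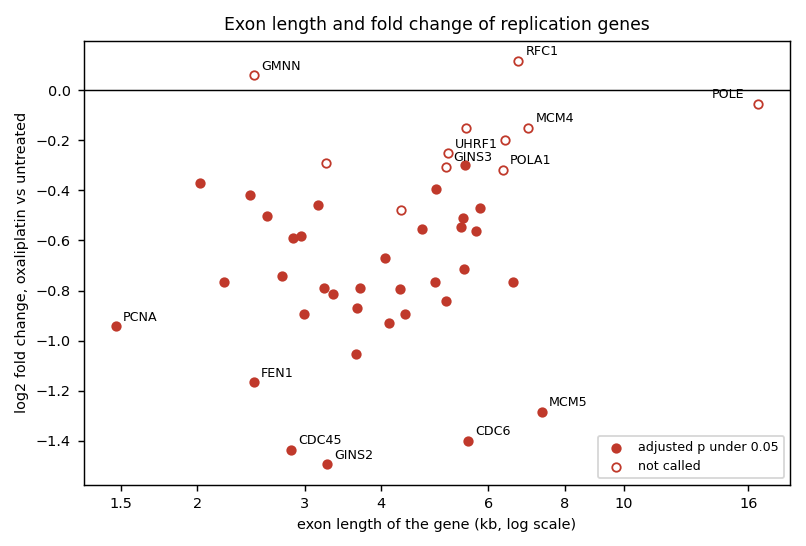
Log2 fold change in oxaliplatin against untreated (y axis) by exon length of the gene in kb (x axis, log scale) for the 46 tested replication genes, filled where the adjusted p was under 0.05. Of the 23 genes up to 4304 bases 21 are filled, and of the 23 longer ones 14 are, with CDC6 and MCM5 the lowest of the longer ones.

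Other genes of DNA replication and of the cell cycle were read from 6 lists by the same test, to be set beside the 15.5% of all genes tested that fell and the 16.2% that rose in oxaliplatin, and the 1.97% and 2.82% in sorafenib. Of 32 further replication factors 8 (25%) fell and 1 rose in oxaliplatin (3 and 0 in sorafenib), with a median log2 fold change of -0.14. Among the 8 were POLE3 (-0.70 ± 0.12, adjusted p = 0.00326) and POLE4 (-1.16 ± 0.20, adjusted p = 0.004), the small subunits of polymerase epsilon, RNASEH2B (-0.88 ± 0.15) and SSRP1, of the FACT histone chaperone (-0.74 ± 0.13). The 1 that rose was TICRR, which helps CDC45 to join the helicase (0.81 ± 0.19, adjusted p = 0.0124), and the 3 that fell in sorafenib were RECQL4, PCLAF and NASP, all 4 named after their values were seen. The remaining origin recognition genes ORC2 to ORC5 were not called in either drug, at -0.06 to 0.12 in oxaliplatin, nor was DBF4, the activator of the CDC7 kinase (0.12 ± 0.18), and these 5 too were named after their values were seen.

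Of 14 genes of deoxynucleotide supply 6 (42.9%) fell and 2 rose in oxaliplatin, and in sorafenib 2 fell (TK1 and TYMS) and 1 rose (RRM2B). NME1, a nucleoside diphosphate kinase (-1.51 ± 0.21, adjusted p = 0.00177), TK1, thymidine kinase (-1.18 ± 0.13, adjusted p = 0.00114), and TYMS, thymidylate synthase (-0.81 ± 0.10, adjusted p = 0.00148), fell. RRM2B, the ribonucleotide reductase subunit induced by p53, rose (1.01 ± 0.14, adjusted p = 0.00196), as it did in sorafenib (0.77 ± 0.14, adjusted p = 0.0222), and the other that rose was SAMHD1, a deoxynucleotide hydrolase, named after its value was seen.

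Of 17 tested E2F, RB and MuvB factors 3 fell (E2F1, E2F7 and MYBL2) and 4 rose (E2F5, TFDP2, RB1 and RBL2) in oxaliplatin, and 2 fell (E2F1 and MYBL2) and 2 rose (E2F5 and E2F7) in sorafenib. The share of this list that fell in oxaliplatin, 17.6%, was near the 15.5% of all genes tested. E2F5, TFDP2 and RB1 are named after their values were seen. E2F1, an activator of replication genes, went from 45.2 ± 4 CPM untreated to 20.2 ± 2.21 CPM in oxaliplatin and 29.2 ± 3.06 CPM in sorafenib (mean ± SD, n = 3 each), and fell in both (-1.16 ± 0.13, adjusted p = 0.00114, and -0.63 ± 0.13, adjusted p = 0.0309). MYBL2, which drives mitotic genes with MuvB, fell in both as well (-1.33 ± 0.14 and -1.10 ± 0.14). RBL2, an RB family repressor, rose in oxaliplatin (0.87 ± 0.13, adjusted p = 0.00218). E2F7, a repressor of replication genes, fell in oxaliplatin (-1.05 ± 0.17, adjusted p = 0.00305) and rose in sorafenib (1.02 ± 0.17, adjusted p = 0.0131).

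Of 16 tested G1-S cyclins, kinases and inhibitors 5 (31.2%) fell and 1 rose in oxaliplatin, and 0 were called in sorafenib (3 lower and 3 higher at an unadjusted p under 0.05, and 0 and 1 by DESeq2). CDKN1A, the gene of the CDK inhibitor p21, was the 1 that rose (1.56 ± 0.26, adjusted p = 0.00405), and it was not called in sorafenib (0.79 ± 0.26, adjusted p = 0.102). CCNA2, CDK2 and CDK4, cyclin A2 and a pair of interphase kinases, fell (-0.66 ± 0.11, -0.74 ± 0.19 and -0.51 ± 0.11), as did CDC25A and CDKN2B, named after their values were seen. Of 11 replication checkpoint genes CHEK1 (-0.63 ± 0.15) and CDC25C (-0.57 ± 0.20) fell and the kinase genes ATR (0.64 ± 0.17) and WEE1 (0.95 ± 0.26) rose in oxaliplatin. That is 18.2% of the list in each direction, near the 15.5% and 16.2% of all genes tested. In sorafenib 0 of the 11 were called (2 lower and 2 higher at an unadjusted p under 0.05, and 2 and 1 by DESeq2).

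Of 20 G2-M and mitosis genes 10 (50%) fell and 0 rose in oxaliplatin (13 and 0 at an unadjusted p under 0.05, and 11 and 0 by DESeq2), and 2 fell in sorafenib, CDC20 and KIF20A, named after their values were seen. UBE2C (-1.21 ± 0.16), AURKB (-1.05 ± 0.18), BIRC5 (-0.84 ± 0.11) and PLK1 (-0.75 ± 0.10), which act in mitotic exit, chromosome segregation and mitotic entry, were the 4 with the smallest p. MKI67, the gene of the proliferation antigen Ki-67, was not called (0.09 ± 0.46, adjusted p = 0.907), with a standard error several times that of the others.

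**Figure D5:**
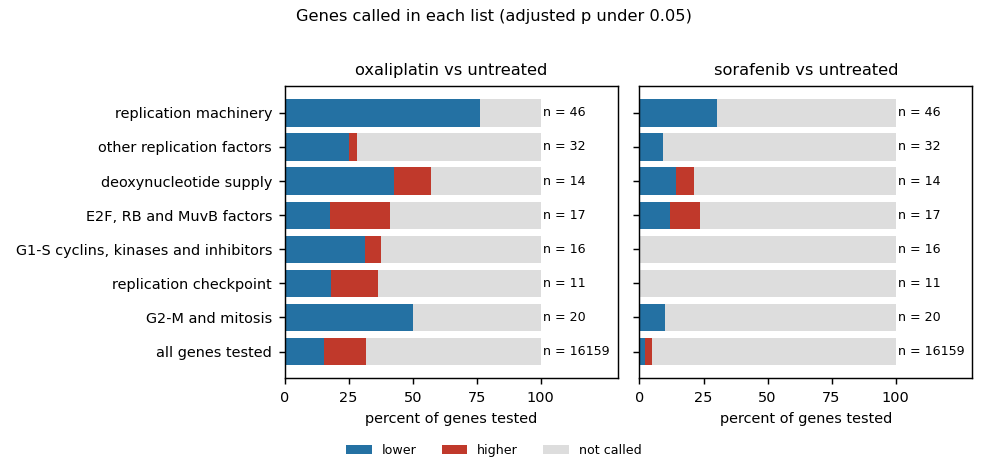
Percent of the tested genes of each list called lower (blue), called higher (red) or not called (grey) at an adjusted p under 0.05, for oxaliplatin (left) and sorafenib (right) against untreated, with the number tested beside each bar. The replication machinery has 76.1% lower in oxaliplatin and 30.4% in sorafenib, against 15.5% and 1.97% of all genes tested.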

How the data were processed

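The 9 files hold counts per gene, made by the authors with featureCounts against GRCh38 and deposited unnormalized, per the submitters' processing notes, which also name DESeq2. Which aligner, annotation release, strand setting and tool versions were used is not given in the sources used here. TRIzol RNA, mRNA selection and an Illumina NovaSeq instrument were used, per the labels' protocols.

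Libraries were grouped by the labels, with 3 per group. In R 4.3.3, edgeR 4.0.16 kept 16159 genes (filterByExpr), scaled libraries by TMM factors and fitted a quasi-likelihood model (robust setting) with a coefficient for each group, at a biological coefficient of variation of 0.224. The 3 contrasts were tested 2-sidedly, with Benjamini-Hochberg adjustment over the 16159 genes. CPM used the TMM factors. Standard errors were derived as |log2 fold change| divided by the root of F. Exon lengths and overlaps came from GENCODE 29, and promoters from RefSeq (GRCh38.p14). Loci are GRCh38 coordinates of the files.

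Values in every library are given for PCNA, MCM2 to MCM7, CDT1, GMNN, the lowest and highest fold change of each step in oxaliplatin, and up to 12 genes called in sorafenib. CDC45 and RFC3 were added after their values were seen, since both were called between the drugs. From each further list up to 4 genes with the smallest p in oxaliplatin are named, with MKI67, E2F1 and CDKN1A. The members and lists were chosen with earlier results of these data known, so counts are set beside those over all genes. Alternatives were DESeq2 1.42.0, other scalings, filters and sets of samples, the replicate number as a block, correction for GC content and length by loess (span 0.5), and leaving out each library. The procedure was tested on simulated counts, with 200 genes of any level changed in the oxaliplatin libraries. It called 3 of 50 genes changed 1.5-fold, 19 of 50 at 2-fold, 36 of 50 at 3-fold and 38 of 50 at 4-fold. Of its 100 calls 4 were false. A gene that was not called may thus still have changed. Those rates come from 200 changed genes among 15809, while 31.7% of genes tested were called in oxaliplatin against untreated. They need not hold for the replication genes.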

Additional observations from a re-analysis of the deposited data

How the results depend on the processing

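In oxaliplatin against untreated the number of replication genes that fell was 25 to 34 with 1 library left out (35 with all), 27 to 37 under the other settings except a 2-fold threshold, which left 6, and the number that rose was 0 in all of them. Among all genes the lower calls were 2504 in the main fit and 1387 to 2607 with 1 library left out. They were 1794 to 2814 under the other settings and 486 at 2-fold. The median log2 fold change of the replication genes was -0.66 to -0.55 with 1 library left out and moved to -0.47 when libraries were scaled by size only, a scaling that moved the median of all genes tested to 0.13. The calls of 24 of the 35 were kept under all 18 alternatives other than that threshold: ORC1, CDC6, CDT1, MCM2, MCM3, MCM5, MCM6, MCM7, CDC45, GINS1, GINS2, GINS4, PRIM2, POLD2, PCNA, RFC2, RFC3, RFC4, FEN1, LIG1, RNASEH2A, RPA3, CHAF1A and CHAF1B. In sorafenib the number that fell (14) was 0 to 19 with 1 library left out, 3 with the replicate number as a block, 1 at 2-fold and 20 without untreated 1 and sorafenib 1, and the median ran from -0.44 to -0.33 with 1 library left out. The lower calls among all genes were 319 in the main fit, 64 with the block and 1315 without untreated 1 and sorafenib 1. That pair was picked on the replication genes themselves, so its count is no check on the 14. None of those 14 replication genes kept its call under all 18 alternatives. Between the drugs the 6 lower genes became 0 to 7 with 1 library left out, 2 with the block and 0 at 2-fold, with medians of -0.22 to -0.18 with 1 library left out and -0.11 with scaling by library size only (all genes tested 0.07), and none of the 6 kept its call under all 18. In these comparisons the number higher was 0 with each library left out. Among all genes the lower calls between the drugs were 819 in the main fit and 368 with the block. The causes of these changes were not tested.

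Directions reversed only for values that were not called. With 1 library left out, GMNN in oxaliplatin ran from -0.02 (without untreated 1, also with sorafenib 1 left out) to 0.136, POLE went to 0.06 with scaling by library size only, and RFC1 to -0.124 with the correction for GC content and length. In sorafenib the ranges with 1 library left out were -0.148 to 0.133 for GMNN (-0.227 without untreated 1 and sorafenib 1), -0.378 to 0.098 for GINS3, -0.049 to 0.054 for POLE, -0.038 to 0.144 for RFC1, -0.116 to 0.026 for RFC3, -0.129 to 0.128 for RFC5 and -0.132 to 0.045 for WDHD1. There POLE was -0.001 by DESeq2 and with RLE factors and -0.231 with the GC and length correction, which took RFC1 to -0.085, and RFC5 was -0.126 without untreated 1 and sorafenib 1. With the block 30 replication genes fell in oxaliplatin, and among all genes the lower calls were 1817. The deviations of libraries with the same number correlated at -0.11 to 0.04, so the numbers did not pair the libraries, and not every library correlated best with its own number. ASF1B, with 2 to 7 counts per library, was tested only in the fit with no filter on low counts.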
